A study of Mus musculus with 6 samples.

Results

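*Aff3* (AF4/FMR2 family member 3) is a gene on the minus strand of mouse chromosome 1, and the data described here are the differentially methylated regions (DMRs) in its gene body in lung endothelial cells (EC) of infant and young adult mice. A DMR was counted to *Aff3* when its midpoint lay in chr1:38175991-38627244 (GRCm38, the mm10 build), which is the 451 kb extent of the curated RefSeq transcript NM_001290814.1 with 22 exons and 21 introns. Of the 18333 DMRs in the authors' list, 44 met this rule. The cluster had been picked for its number of methylation losses, so the count, the direction and the group means of these DMRs are a description of selected regions and were given no test.

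The study compared EC sorted from the lungs of 3 infant samples (8 to 10 days old) with those of 3 young adult samples (8 to 12 weeks old) of female C57BL/6N mice with no treatment or transgene named, to follow DNA methylation as vessels become quiescent. The sort kept living cells with CD31 and CD34 on their surface and without PTPRC, LYVE1, LY76 and PDPN, markers of leukocytes, lymphatic or erythroid cells. Methylation was measured by T-WGBS, whole genome bisulfite sequencing after tagmentation, in which a transposase fragments the DNA and bisulfite converts unmethylated cytosine, so that the share of unconverted reads at a CpG is its methylation level. The samples of a group are described as separate mice. Each value below is a mean that the authors took for 1 group and 1 DMR, across samples and CpGs, in percent. With neither values per sample nor coverage analysed here, replicate error could not be judged for any difference, and the depth behind a mean is unknown. No RNA or marker data were analysed here either. The identity of the cells thus rests on the sort, whose purity the paper reports to have checked by qPCR of marker genes.

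AFF3 belongs to the AF4/FMR2 family of nuclear scaffold proteins. Its relatives AFF1 and AFF4 hold together the super elongation complex, which brings the kinase P-TEFb to paused RNA polymerase II and lets transcription proceed, and AFF3 can build a similar complex. The human gene is also known as a fusion partner of KMT2A in leukaemia, and the protein was first described as a lymphoid nuclear factor. CpGs in introns are methylated in most cells, and a local loss of this methylation is often found where an enhancer or another regulatory element is in use. No role of AFF3 in lung vessels is assumed here.

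Below, DMRs carry numbers from 1, nearest to the transcription start, to 44, farthest downstream. The reference sequences of the DMRs on which the description turns show how few CpGs lie in each. They are printed from the GRCm38 plus strand, 5′ to 3′, with each CpG in capitals, from the first to the last CpG of the DMR. All CpG numbers given here are those of the reference, and some of these CpGs may have failed the authors' coverage filter. First come the 5 DMRs with the largest losses, in order of size.
DMR 40, intron 7, chr1:38320968-38321149: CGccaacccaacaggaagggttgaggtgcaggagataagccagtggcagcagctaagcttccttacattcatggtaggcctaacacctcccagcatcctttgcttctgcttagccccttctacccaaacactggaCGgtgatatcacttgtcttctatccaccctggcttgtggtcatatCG
DMR 31, intron 4, chr1:38476190-38476294: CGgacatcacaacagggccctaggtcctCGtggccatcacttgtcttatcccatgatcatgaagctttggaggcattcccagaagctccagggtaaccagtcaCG
DMR 41, intron 7, chr1:38320311-38320569: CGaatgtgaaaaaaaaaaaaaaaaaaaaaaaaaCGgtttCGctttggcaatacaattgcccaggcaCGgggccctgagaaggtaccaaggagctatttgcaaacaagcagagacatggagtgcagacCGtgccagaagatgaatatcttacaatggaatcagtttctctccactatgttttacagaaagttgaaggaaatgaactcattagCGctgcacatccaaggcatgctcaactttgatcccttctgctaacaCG
DMR 17, intron 1, chr1:38588914-38588999: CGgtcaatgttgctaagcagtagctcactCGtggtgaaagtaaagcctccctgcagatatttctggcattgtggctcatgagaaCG
DMR 3, intron 1, chr1:38624613-38624722: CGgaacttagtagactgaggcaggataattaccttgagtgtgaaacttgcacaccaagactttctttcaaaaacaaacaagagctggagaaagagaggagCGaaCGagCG
The 3 CpGs of DMR 40 were spread over 182 bp, whereas DMR 41, its neighbour in intron 7, held 7 CpGs in 259 bp.

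The second set marks both ends of the cluster and its only gain.
DMR 1, intron 1, nearest to the start, chr1:38626002-38626294: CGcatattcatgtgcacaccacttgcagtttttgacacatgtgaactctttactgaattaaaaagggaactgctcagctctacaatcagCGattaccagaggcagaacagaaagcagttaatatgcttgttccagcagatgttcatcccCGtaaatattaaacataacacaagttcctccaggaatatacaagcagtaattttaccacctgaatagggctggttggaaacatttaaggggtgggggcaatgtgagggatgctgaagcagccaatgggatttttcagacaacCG
DMR 44, intron 9, farthest from the start, chr1:38261360-38261535: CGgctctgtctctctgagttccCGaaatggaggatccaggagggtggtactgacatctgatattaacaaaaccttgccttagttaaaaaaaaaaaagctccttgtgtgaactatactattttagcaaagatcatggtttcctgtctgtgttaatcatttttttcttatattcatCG
DMR 39, intron 6, the gain, chr1:38333393-38333555: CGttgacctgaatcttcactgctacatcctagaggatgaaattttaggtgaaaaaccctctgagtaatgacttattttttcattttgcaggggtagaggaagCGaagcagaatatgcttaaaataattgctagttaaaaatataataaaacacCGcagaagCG
DMR 39 was the poorest in G and C of the 44, at 36.2% of its bases.

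The last set holds the losses with the lowest and the highest infant mean and the smallest loss, all of them in intron 1.
DMR 15, lowest in both groups, chr1:38591560-38591593: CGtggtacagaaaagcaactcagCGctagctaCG
DMR 7, smallest loss, chr1:38613036-38613122: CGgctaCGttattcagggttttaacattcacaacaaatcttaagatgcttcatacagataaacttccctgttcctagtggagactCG
DMR 11, highest infant mean, chr1:38600895-38600929: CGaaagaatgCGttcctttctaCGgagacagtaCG
DMR 11 and DMR 15 were among the shortest regions, with 4 CpGs in 35 bp and 3 CpGs in 34 bp. The widest DMR, number 18 at chr1:38584689-38585076, spanned 388 bp and held the most CpGs, 11, and its sequence is not printed for its length.

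The young adult mean was below the infant mean in 43 of the 44 DMRs of *Aff3* (97.7%) and above it in 1. In the whole list, 45.9% of DMRs were losses of this kind and 54.1% were gains. The gene had been chosen for these losses, so nothing is read from that contrast. Over the 43 losses, the infant mean ranged from 19.1% to 97.02% with a median of 74.7%, and the young adult mean ranged from 3.15% to 78.9% with a median of 41.5%. The differences (young adult minus infant) ran from -43.8 to -15.6 percentage points, with a median of -31.8. The typical *Aff3* DMR thus went from a largely methylated infant state to a young adult state near the middle of the scale.

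**Figure D1:**
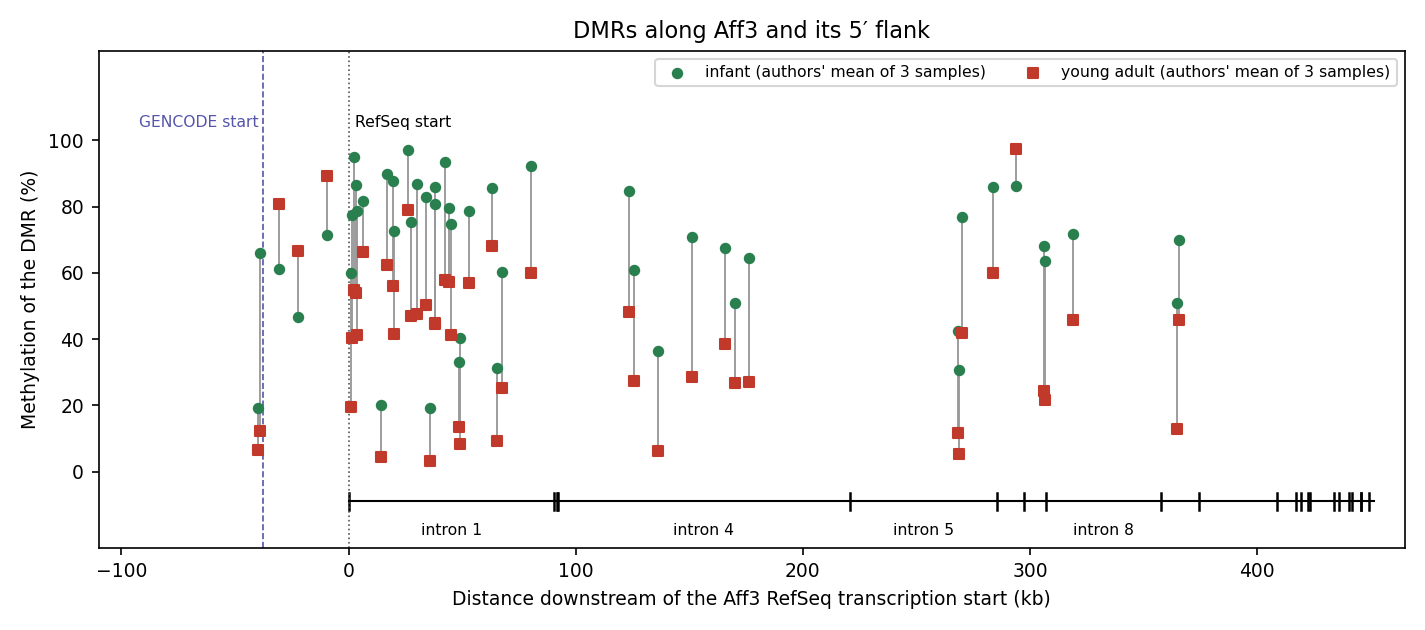
Authors' mean methylation in percent (y axis) of each DMR against its distance from the RefSeq start of *Aff3* in kb (x axis), with infant means as green circles, young adult means as red squares and a grey line joining the 2 means of a DMR; no error bars can be drawn from group means. Ticks on the line below mark exons, negative distances are upstream, and vertical lines mark the RefSeq start and the more distal GENCODE start. Of the 44 DMRs of the gene body, 22 lie within 50 kb of the start, the gain is at 294 kb, and none lies beyond 366 kb.

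DMR 40 had the largest loss, from 68.2% to 24.4% (-43.8 percentage points), and lay 306 kb downstream of the start in intron 7. DMR 41, only 398 bp further on and 148 bp from exon 8, went from 63.6% to 21.6% (-42.1). It was the DMR closest to any exon, and the only one within 500 bp of one. In the long intron 4, DMR 31 went from 70.9% to 28.4% (-42.4). Intron 1 held the other two of the 5 largest losses: DMR 17 with 85.9% and 44.7% (-41.2) and DMR 3 with 95.1% and 54.7% (-40.4). Large losses were therefore found from 2.58 kb to 307 kb downstream of the start, and in 3 different introns. DMR 1 followed closely, at 59.9% in infant EC and 19.6% in young adult EC (-40.3).

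At the other end of the scale, DMR 7 (20.04% and 4.49%) and DMR 6 (81.7% and 66.2%) had the smallest losses, both of -15.6 percentage points. They started from opposite sides of the methylation range. DMR 15 had the lowest mean in both groups, at 19.1% in infant EC and 3.15% in young adult EC. It lay between DMR 14 (82.9% and 50.3%), 1483 bp upstream, and DMR 16 (80.7% and 44.6%), 1988 bp downstream. Both DMRs beside it were thus more methylated in either group. DMR 11 was the most methylated loss, with 97.02% in infant EC and 78.9% in young adult EC. The single gain, DMR 39 in intron 6, went from 86.3% to 97.2% (11.0 percentage points) and was the *Aff3* DMR closest to the authors' minimum difference of 10%. Its nearest neighbours on either side were losses, DMR 38 (85.9% and 59.96%) and DMR 40.

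Introns held all 44 DMRs and exons held 0. Exons make up little of the gene, and no exon had more than 54 of its 5501 reference CpGs. The 0 is therefore not read as a trait of exons. Intron 1, the 90.1 kb between the first exon and the second, held 27 of the 44 DMRs (61.4%). It has 19.98% of the length of the gene and 20.5% of the 5501 CpGs. Of its 1127 CpGs, 10.3% lay inside a DMR, against 3.42% over the gene body. The infant means in intron 1 had a median of 79.6% and the young adult means one of 46.8%, with a median difference of -31.8 percentage points. No DMR of intron 1 was a gain. Among the losses, both the highest and the lowest means of either group were in this intron.

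Intron 4 was longer, with 128 kb and 1401 CpGs, yet held 7 DMRs and had 2.36% of its CpGs inside them. Its median group means were 64.3% and 27.4%, and the median difference was -33.6 percentage points. The longest DMR of this intron, number 34 with 9 CpGs, went from 64.3% to 27.1%. Intron 5 held 4 DMRs with medians of 59.6% and 26.7%. The small intron 7 stood next to intron 1 in density, with 8% of its 125 CpGs in its 2 DMRs, whose medians were 65.9% and 23.0%. Introns 9 and 8 held 2 and 1 losses, and intron 6 held the gain. Introns 2 and 3, together with 12 CpGs, held none.

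**Figure D2:**
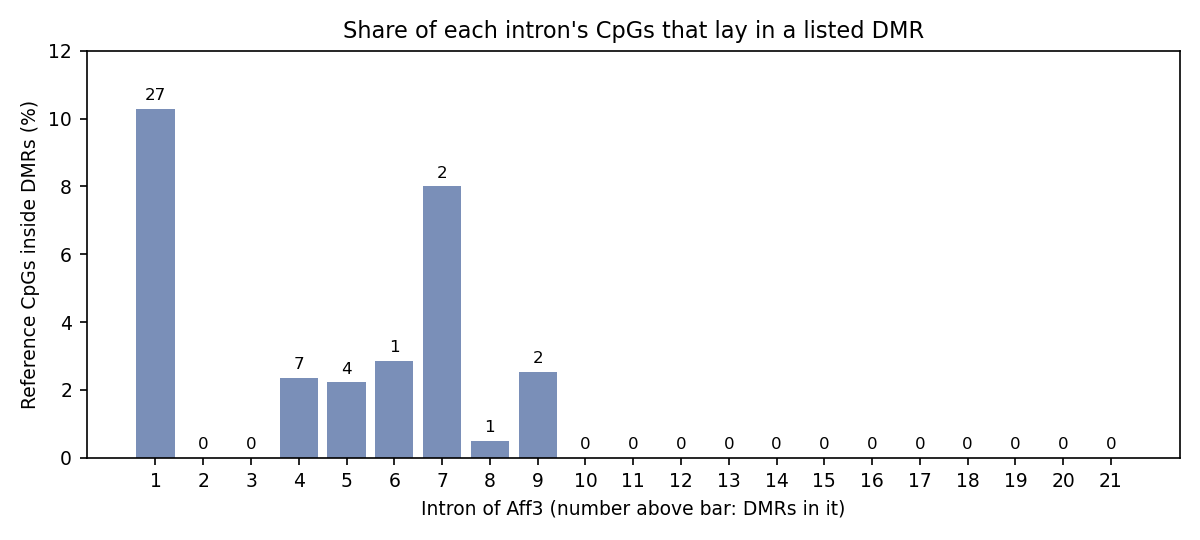
Share of the reference CpGs of each *Aff3* intron that lay inside a listed DMR, in percent (y axis), by intron number (x axis), with the number of DMRs above each bar. Intron 1 reaches 10.3% and intron 7 reaches 8%, introns 10 to 21 are at 0.

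Introns 10 to 21, with 911 CpGs in 70.7 kb, held no DMR, so 7 of the 21 introns held all. The last DMR, number 44 with 69.8% and 45.8%, ended 85.4 kb before the end of the transcript. That final stretch had 13 exons and 1193 CpGs. Whether its CpGs passed the authors' coverage filter is unknown, and the same is true of every stretch without a DMR.

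The DMRs began close to the start of the gene. The edge of DMR 1 lay 950 bp downstream of the first base of the transcript, and it was the only DMR to reach into the 1 kb on either side of the start, a window with 190 CpGs. The 300 bp RefSeq promoter window (chr1:38627195-38627494), with 54 CpGs and a GC content of 83.3%, held none. Within 10 kb downstream of the start lay 6 DMRs, within 25 kb 10 and within 50 kb 22. When DMRs up to 10 kb apart were joined, 23 of them formed 1 run of 52.2 kb in intron 1, all losses, with 99 CpGs. The other 21 DMRs fell into 11 runs of 1 to 3 DMRs.

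Gaps between consecutive DMRs had a median of 2691 bp, and 11 of the 43 gaps were under 1 kb. The smallest was the 82 bp between DMR 4 (86.5% and 54.0%) and DMR 5 (78.6% and 41.2%). The largest was 91.7 kb with 993 CpGs, from 176 to 268 kb downstream of the start, across the end of intron 4 and the beginning of intron 5. Between consecutive losses under 1 kb apart (11 pairs), the infant means differed by a median of 8.63 percentage points, against 20.96 for the 31 pairs at a greater distance. Pairs with a DMR in common are not independent, and this difference was given no test.

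**Figure D3:**
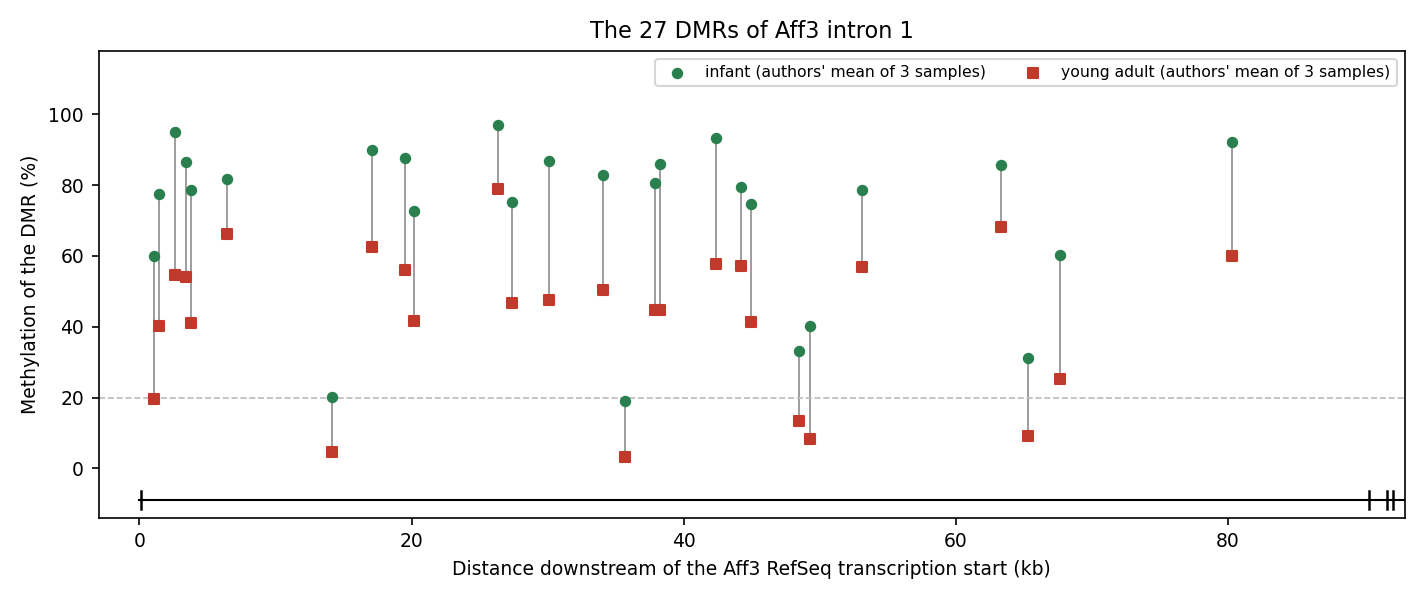
Authors' mean methylation in percent (y axis) of the 27 DMRs of *Aff3* intron 1 against distance from the RefSeq start in kb (x axis), with infant means as green circles and young adult means as red squares; the dashed line marks 20%. All 27 squares lie below their circles, and 6 squares lie below the line.

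In 10 of the 43 losses (23.3%) the young adult mean was under 20%, the unmethylated or nearly unmethylated end of the scale. These were DMRs 1, 7, 15, 21, 22 and 25 in intron 1, DMR 30 in intron 4, DMRs 35 and 36 in intron 5 and DMR 43 in intron 9. They were already lower in infant EC, with a median of 34.8%, and ended at a median of 8.77%. Since these DMRs were picked by a low young adult mean, their low infant means are partly set by that choice. DMR 1, the highest of them in infant EC at 59.9%, and DMR 43, from 50.8% to 13.0%, were the only ones that started above 50%. Among those that started lower, DMR 30 went from 36.3% to 6.35%, DMR 36 from 30.7% to 5.23% and DMR 22 from 40.2% to 8.40%. DMRs 35 and 36, 484 bp apart, and DMRs 21 and 22, 667 bp apart, lay side by side.

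The other 33 losses started at 50.9% to 97.02% in infant EC and kept 21.6% to 78.9% in young adult EC. In 13 losses (30.2%) the young adult mean was still over 50%, and 12 of these were in intron 1. DMR 24 kept 68.2% of 85.6%, DMR 8 kept 62.5% of 89.9% and DMR 27 kept 59.96% of 92.4%. Outside intron 1, DMR 38 in intron 5 was the only loss that ended above 50%.

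Infant and young adult means of the 43 losses were high or low together (Pearson's r = 0.93, Spearman's rho = 0.92). Since both means belong to regions chosen for a difference in 1 direction, part of this relation is set by the choice, and over all 8422 losses in the list r was 0.87 and rho 0.89. The infant mean and the size of the loss had r = 0.31 and rho = 0.18 within *Aff3*. Distance from the start and the size of the loss had r = 0.14 and rho = 0.04, and distance and the infant mean had r = -0.22 and rho = -0.38. The number of CpGs and the size of the loss had r = 0.29 and rho = 0.24. The DMRs share libraries and neighbourhood, so no p-value is given.

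Set beside all 8422 losses in the list, the losses of *Aff3* lay higher on the methylation scale. All losses had a median infant mean of 61.5% (quartiles 47.3 and 74.5) and a median young adult mean of 25.4% (quartiles 13.7 and 39.0), where *Aff3* had 74.7% (60.1 and 85.2) and 41.5% (23.0 and 54.3). Within the gene, intron 1 had the highest medians of its parts, 79.6% and 46.8%. The DMRs of intron 4 had 64.3% and 27.4%. Those of introns 5 to 9, the gain included, had 69.0% and 33.1%. Both of these pairs were closer to the list than that of intron 1. The median difference was much the same, -31.8 percentage points in *Aff3* and -32.5 in the list. In proportion, the young adult mean was a median of 54.8% of the infant mean in *Aff3* and 42.8% over all losses. Infant means over 80% made up 34.9% of the *Aff3* losses and 15.5% of all, and young adult means over 50% made up 30.2% and 10.3%. Young adult means under 20% made up 23.3% of the *Aff3* losses and 38.1% of all. Very large losses were no more frequent in *Aff3*: 6 DMRs (13.95%) had a difference of at least 40 percentage points in size, against 20.3% of all losses. Of all losses, 11.4% were as large as the largest of *Aff3* or larger. The DMRs of the gene are among those 8422 and were chosen from these values, so these are descriptions.

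**Figure D4:**
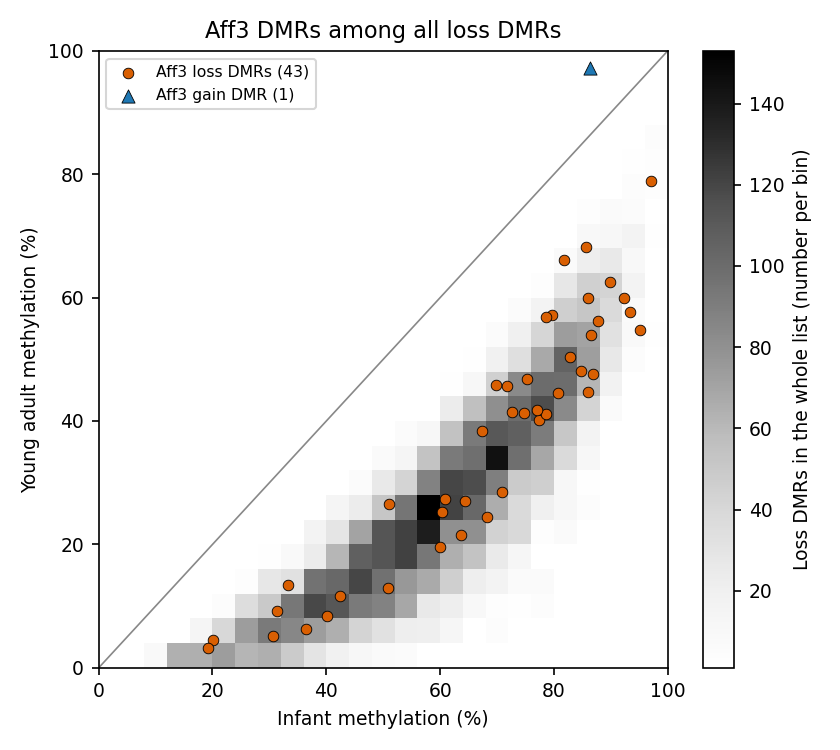
Authors' young adult mean (y axis, percent) against infant mean (x axis, percent) of the *Aff3* DMRs, with losses as orange points and the gain as a blue triangle, over all loss DMRs of the list as grey bins whose shade gives their number; the grey line marks equal means. The *Aff3* points span the grey cloud, and 15 of the 43 lie beyond 80% on the infant axis.

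The rule used neither width nor sequence. The *Aff3* losses were 34 to 388 bp wide with a median of 121 bp, against 131 bp over all losses, and 20 of the 43 held only 3 CpGs, the fewest that the authors allowed. In 12 (27.9%) there were 5 CpGs or more, against 25.6% of all losses. GC content had a median of 48.8%, against 50.4%. A CpG-dense window by the usual sequence criteria (200 bp, GC content of at least 50%, observed to expected CpG ratio over 0.6) overlapped 7 of the losses (16.3%), against 11.6% of all. No repeat-masked base was present in 27 (62.8%, against 55.1%). DMR 3, among the 5 largest losses, was the only one with more masked than unmasked bases, at 61.8%.

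Short binding motifs of factor families active in endothelium were counted on both strands in a window of 200 bp around the midpoint of each of the 44 DMRs and of all 18333. The ETS core GGAA was in 42 of the 44 windows (95.5%) and in 90.4% of all. With a CpG before it, as CGGAA, whose matches are all matches of GGAA too, it was in 10 (22.7%) and 14.4%. GATA motifs (AGATAA) were in 7 windows (15.9%, against 11.7%), E-boxes (CANNTG) in 32 (72.7%, against 66.0%) and nuclear receptor core motifs (GGTCA) in 17 (38.6%, against 31.1%). KLF motifs (CCACCC) were in 8 (18.2%, against 16.0%), SMAD motifs (CAGACA) in 9 (20.5%, against 19.1%) and forkhead motifs (TGTTTAC) in 2 (4.55%, against 4.34%). Against the windows of all losses alone, the share of forkhead motifs in *Aff3* was the lower one (5.91% of all losses), and that of GATA motifs was closer (13.8% of all losses). SOX motifs (ACAAAG) were in 6 (13.6%, against 17.2%) and AP-1 motifs (TGANTCA) in 1 (2.27%, against 6.50%). DMR 3, printed above, opens on CGGAA. A match is a stretch of letters and shows no binding, and no share is called particular to *Aff3*.

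The losses stopped at the start of the gene, as far as the list goes, and DMRs of the other direction lay just upstream. The first DMR outside the rule was a gain 9.63 kb upstream of the RefSeq start, from 71.5% to 89.3% (17.9 percentage points). Further gains followed 22.4 kb upstream (46.7% and 66.7%) and 30.6 kb upstream (61.0% and 80.9%). These 3 gains lay between the RefSeq start and a distal start 37.7 kb upstream (position 38664955), where 3 of the 6 GENCODE transcripts of *Aff3* begin. These gains thus lay inside the transcripts that begin at the distal start. On the far side of the distal start came losses again, and the nearer of them, chr1:38666282-38666333, was larger than any in the gene body.
Loss upstream of the distal start, GRCm38 plus strand, CpGs in capitals: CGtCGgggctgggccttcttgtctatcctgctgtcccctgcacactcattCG
This region of 3 CpGs lay 1.35 kb upstream of the distal start and went from 66.0% to 12.3% (-53.7 percentage points). The next one, chr1:38666941-38666977 with 4 CpGs, had 19.2% and 6.62% (-12.6).

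Within 500 kb on the 5′ side there were 8 gains and 2 losses in all, and the 2 losses were those at the distal start. A group of 4 gains lay 133 to 140 kb upstream, with differences from 18.5 to 43.6 percentage points, nearest to the promoter of *Lonrf2*, a ring finger protein gene. Within 500 kb on the 3′ side there were 1 gain and 1 loss. That loss, 146 kb beyond the end of the transcript in *Eif5b*, a translation initiation factor gene, had 56.5% and 33.0%, and it was the first DMR past DMR 44. *Rev1*, the translesion DNA polymerase gene 46.3 kb downstream of *Aff3*, held 0 DMRs. *Lonrf2*, the nearest gene upstream, held 0 in its own body. Of the 5 protein-coding genes on each side, *Eif5b* and *Npas2* held a DMR, which is 20% of the 10 and near the 19.9% of all curated protein-coding genes that held one. *Npas2*, a circadian transcription factor gene 567 kb upstream, had 1 loss and 2 gains. The authors assigned 34 of the 44 DMRs to the promoter of *Aff3* and the 10 from DMR 35 on to that of *Rev1*, which is nearer to them.

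The other genes of the elongation machinery held between 0 and 6 DMRs each. Of the 22 genes in the list of the AF4/FMR2 family, the super elongation complex, P-TEFb and the KMT2A and DOT1L partners, 7 held a DMR. Without *Aff3*, 6 of 21 genes (28.6%) held 14 DMRs, 4 of them losses and 10 gains. Over all curated RefSeq genes, 17.6% held at least 1 DMR, and over the protein-coding ones, which the listed genes all are, 19.9% did. Differences in length between the genes are not taken into account in these shares. *Aff1*, the family's founding member, had a loss (24.7% and 6.65%) and a gain (62.6% and 85.0%). *Aff2*, which is longer than *Aff3* at 508 kb and X-linked, and *Aff4*, the main scaffold of the complex, had none.

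Among the factors that the scaffold binds, *Ell2*, an elongation factor gene, had 1 loss (85.8% and 51.2%) and 2 gains. *Mllt3*, which encodes a reader of acylated histone lysines, had 6 gains, from 12.8 to 34.8 percentage points, and no loss in its 263 kb. Of the 6 genes of P-TEFb and its controlling factors, 1 held a DMR (16.7%, near the share of all genes), a loss in the cyclin gene *Ccnt2* (24.6% and 7.03%). *Kmt2a*, a histone H3 lysine methyltransferase gene, had 1 loss (65.6% and 26.2%), and *Mllt10*, a DOT1L cofactor gene, had 1 gain (7.34% and 40.8%). The other 15 genes had 0 DMRs, among them the kinase gene *Cdk9* and the inhibitor genes *Hexim1* and *Hexim2*.

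Of 26182 curated RefSeq genes, 1.15% (301) held more than 5 losses, and *Aff3* ranked 10th by their number. *Aff3* is a long gene and had 9.53 losses per 100 kb. Of the 257 other genes at least as long, 57 (22.2%) held a loss, against 8.46% of all genes. *Prkce*, *Tmcc3* and *Msi2*, long genes with many losses, were set beside it. *Prkce*, which encodes a protein kinase C isoform, had 65 losses in 490 kb (13.3 per 100 kb), *Tmcc3*, a membrane protein gene, had 40 losses and 4 gains in 279 kb (14.3), and *Msi2*, an RNA-binding protein gene, had 36 losses in 379 kb (9.501). *Aff3* and *Msi2* thus had about the same density. Over the whole gene, the losses of *Aff3* had higher median group means than those of these 3 genes. The 7 losses in intron 4 of *Aff3*, with medians of 64.3% and 27.4%, lay close to those 3 genes. The 27 in its intron 1, with 79.6% and 46.8%, lay higher. The median infant mean was 74.7% in *Aff3*, 65.8% in *Msi2*, 62.7% in *Prkce* and 64.7% in *Tmcc3*, and the median young adult mean was 41.5%, 27.0%, 27.2% and 23.7%. *Prickle2*, another long gene with many losses (54 in 335 kb), which was looked at after its values were seen, came closer to *Aff3*, with medians of 73.1% and 37.4%. The quartiles overlapped: young adult means ran from 23.0% to 54.3% in *Aff3* and from 12.4% to 37.9% in *Msi2*. Young adult means under 20% made up 23.3% of losses in *Aff3*, 41.7% in *Msi2*, 40% in *Prkce* and 35% in *Tmcc3*. The largest loss was -43.8 percentage points in *Aff3*, -55.8 in *Msi2*, -54.6 in *Prkce* and -59.5 in *Tmcc3*. All of these genes were chosen from these values, and the differences between them were not tested.

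**Figure D5:**
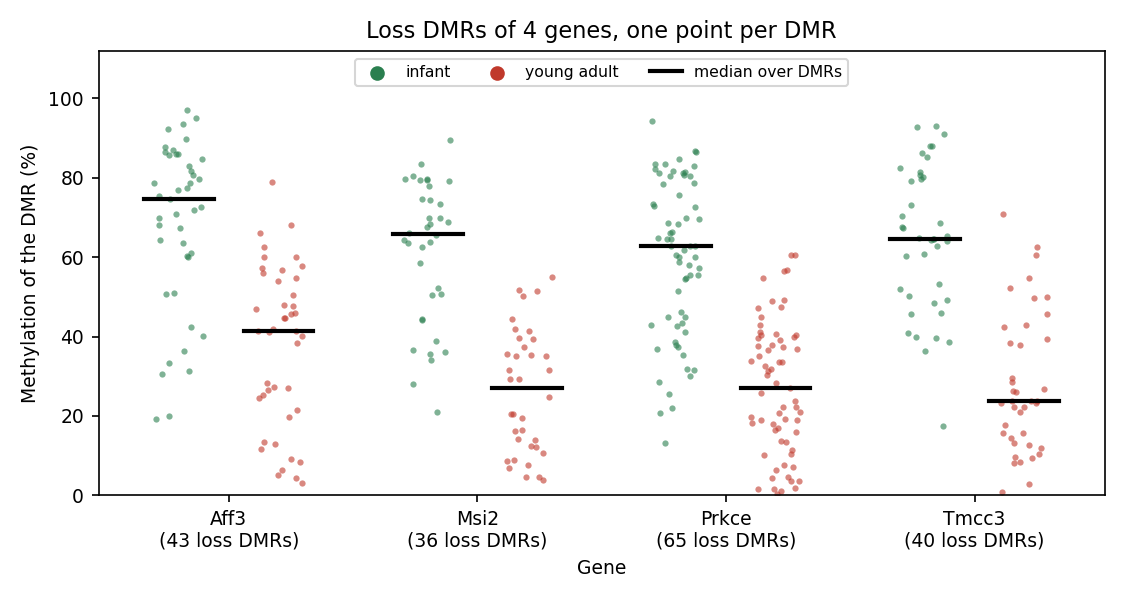
Authors' mean methylation in percent (y axis) of each loss DMR of *Aff3*, *Msi2*, *Prkce* and *Tmcc3* (x axis), with infant means in green, young adult means in red, points spread sideways for display and black bars at the medians over DMRs. The *Aff3* medians, 74.7% and 41.5%, are the highest of the 4 genes plotted in each group.

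By the pair of median group means over all DMRs of a gene (75.02% and 41.7% in *Aff3*), the closest of 473 other genes with more than 5 DMRs were *Irs1*, *Wwc2* and *Kitl*. Likeness was the distance between the 2 medians in percentage points, over 2 group means only. *Irs1*, which encodes an insulin receptor substrate, lay 1.30 percentage points away, with 8 losses and medians of 73.7% and 41.6%. *Wwc2*, a gene of the Hippo pathway, lay 1.40 away with 5 losses and 1 gain. *Kitl*, the gene of stem cell factor, lay 2.04 away, and its 44 losses, with medians of 76.9% and 41.0%, came from a gene of 84.6 kb, so that they were much denser than those of *Aff3*.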

How the data were processed

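The authors prepared 3 sequencing libraries per sample, trimmed adaptors (SeqPrep), aligned reads to in silico converted mm10 (BWA 0.6.1), removed duplicates (Picard) and called DMRs on unsmoothed data (bsseq in R 3.2.2). A CpG needed 8-fold coverage or more in 2 of 3 samples per group, and a DMR needed 3 or more consecutive CpGs, each at p under 0.05, with group means 10% or more apart. In the deposited list the authors' mean of a group at a DMR is a fraction. Because the authors selected regions by a difference between the same samples, the differences are those of selected regions, and a stretch without a DMR may have lacked coverage.

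Fractions were multiplied to percent. The file's positions were converted to 1-based coordinates, from the first base of the first CpG to the last base of the last, and in 18333 of 18333 DMRs both ends were a CpG on GRCm38. Sequence, CpGs and exons came from RefSeq GRCm38.p6, further transcripts from GENCODE M21, and the promoter IDs NM_010678 and NM_019570 of the authors' list were taken as *Aff3* and *Rev1*. Genes held the DMRs whose midpoint lay in their extent. The members, gene lists and comparisons were chosen with earlier results of these data known. Named were *Aff3*, listed genes with a DMR, the nearest neighbours and those with a DMR, 3 genes with like clusters and the 3 most alike in median means, and of the DMRs the 5 largest losses, every gain and the extremes. Other DMRs, and listed genes without a DMR, were named after their values were seen. Of the listed genes, 1 is not reported here and was left out of the counts. The planned test per sample could not be run on group means, so all values are descriptions. Scripts were tested on simulated regions and run in Python 3.11.15 (pandas 2.3.3, numpy 2.4.6). Alternatives were a minimum difference of 20 percentage points, a minimum of 5 CpGs, merging of DMRs up to 500 bp apart, another assignment or extent of the gene, and weights by CpGs.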

Additional observations from a re-analysis of the deposited data

How the results depend on the processing

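No paired analysis was possible because the list gives group means only, and for the same reason no replicate could be left out and no coverage minimum tried. The median difference stayed negative in every alternative that was run. Its sign was set beforehand by the choice of a cluster of losses, so this is no check. With at least 5 CpGs per DMR, *Aff3* held 12 DMRs in place of 44, 100% of them losses, with median infant and young adult means of 68.5% and 34.1% in place of 75.02% and 41.7%, and a median difference of -34.2 in place of -31.7 percentage points. With a difference of at least 20 percentage points, which by construction drops the gain, 100% of 37 were losses. Merging DMRs up to 500 bp apart left 38 regions with a median young adult mean of 44.7% and a median difference of -30.7. Taking the DMRs whose nearest promoter was that of *Aff3*, which adds 5 outside the gene body, gave 39 with 36 losses and a young adult median of 44.6%. The extent over all GENCODE transcripts, chosen after seeing the data, gave 47 with 4 gains and medians of 72.6% and 44.6%. The other values moved by less than 1 percentage point for medians, 1.5 times for counts and the 95% Wilson interval for the share of losses. That interval served only as a limit for calling a share moved. It treats DMRs as independent, which they are not, so it measures no sampling error here. Weights by CpGs give no count. The extent over all RefSeq transcripts held the same number of DMRs. Depth is unknown, so how much of the spread among DMRs is counting error was not tested.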
